A study of Mus musculus with 3 samples.

Results

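B lineage cells were taken as barcodes that carried a unique molecular identifier (UMI, 1 count per captured RNA molecule) in at least 2 of 5 genes, Cd79a, Cd79b, Vpreb3, Ly6d and Ms4a1. Only barcodes with 200 to 6000 detected genes and at most 15% of their UMIs in mitochondrial genes were considered. The rule found 135 barcodes among 14378 within these limits, and the other 14243 served for comparison. The members were selected on measured UMIs of these genes in the same libraries, so the levels of these 5 genes are described below without a test. The deposited tables held 32657 barcodes in all.

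The study profiled the mouse cochlea at P14 and P28 (postnatal days 14 and 28) with droplet single-cell RNA sequencing. Each of the 3 libraries, 1 at P14 and 2 at P28, pooled 14 cochleae from 7 C57/B6 mice, with no treatment or transgene stated in the labels, and no sort for blood cells was described. The bony capsule wall was taken off and the soft tissues of the turns, the stria vascularis and the ganglion were dissociated with collagenase IV. Depth came to 10125255 UMIs over 2513 barcodes at P14, 35485894 over 11948 in P28 replicate 1 and 37530956 over 18196 in P28 replicate 2. Pooled animals cannot be told apart, so each library counted as 1 sample, and p-values measured the spread between libraries only.

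B cells arise from haematopoietic progenitors, in mammals mainly in the bone marrow. A pro-B cell rearranges its immunoglobulin heavy chain gene with the recombinases Rag1 and Rag2, a pre-B cell pairs the new heavy chain with the surrogate light chain of Vpreb1 and Igll1, and an immature B cell replaces the surrogate with a kappa or lambda light chain. Naive mature B cells carry IgM together with IgD, and plasma cells are the antibody-secreting end of the lineage. The cochlea has resident macrophages, and B cells are not among its structural cell types.

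The proximal promoters of 4 genes that the results turn on are shown because these genes mark the lineage as a whole (Cd79a and Vpreb3) or its precursor stage (Vpreb1 and Igll1). Each covers 250 bases before to 50 after the gene start, 5′ to 3′ on the gene's own strand, from RefSeq on GRCm38.p6. Capitals mark a match to the E-box letters CAGGTG or their reverse complement CACCTG, or to the octamer letters ATGCAAAT or their reverse complement ATTTGCAT. The Cd79a window is chr7:24897247-24897546 (plus strand), that of Vpreb3 chr10:75948050-75948349 (plus strand), that of Vpreb1 chr16:16869206-16869505 (minus strand) and that of Igll1 chr16:16863936-16864235 (minus strand).
Cd79a: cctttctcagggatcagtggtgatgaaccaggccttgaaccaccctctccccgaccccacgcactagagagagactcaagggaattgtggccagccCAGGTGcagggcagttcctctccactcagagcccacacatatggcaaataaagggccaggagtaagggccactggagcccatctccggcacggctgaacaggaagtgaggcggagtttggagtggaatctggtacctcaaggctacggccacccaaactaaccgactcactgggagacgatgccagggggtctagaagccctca
Vpreb3: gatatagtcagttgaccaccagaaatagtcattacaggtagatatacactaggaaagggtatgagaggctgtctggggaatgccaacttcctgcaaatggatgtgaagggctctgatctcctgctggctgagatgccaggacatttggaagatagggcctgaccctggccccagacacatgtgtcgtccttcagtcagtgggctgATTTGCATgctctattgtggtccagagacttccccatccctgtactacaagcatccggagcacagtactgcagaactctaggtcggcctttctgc
Vpreb1: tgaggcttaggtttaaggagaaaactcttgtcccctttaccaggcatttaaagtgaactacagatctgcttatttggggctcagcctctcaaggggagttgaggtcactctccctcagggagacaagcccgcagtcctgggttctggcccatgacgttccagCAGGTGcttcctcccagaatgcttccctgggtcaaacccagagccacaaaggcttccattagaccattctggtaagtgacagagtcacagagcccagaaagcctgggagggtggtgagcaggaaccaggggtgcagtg
Igll1: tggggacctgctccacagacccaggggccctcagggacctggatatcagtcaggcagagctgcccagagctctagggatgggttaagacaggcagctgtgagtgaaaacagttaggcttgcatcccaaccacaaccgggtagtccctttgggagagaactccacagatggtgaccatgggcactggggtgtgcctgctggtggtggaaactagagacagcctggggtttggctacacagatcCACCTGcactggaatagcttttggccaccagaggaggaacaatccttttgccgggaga
The E-box letters, counted on both strands, occurred in 5 of the 8 rule and precursor gate genes that had a promoter entry (of 11 such genes) and in 6640 of all 32851 promoters of the same length, 20.2%. The octamer letters occurred in 1 of the 8 and in 570 of all promoters, 1.74%. The gene starts are those of RefSeq, and GENCODE vM21 gives Vpreb3 and Vpreb1 a longer span, so that the windows of these genes lie inside it. For Cd79a the GENCODE start, 24897381, lies within the window, so that part of this window is inside the GENCODE span. A match describes the letters in the window and is not a measured binding site.

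The 135 barcodes made up 4.51% of barcodes within the limits at P14 (75 of 1662, exact binomial 95% interval 3.57 to 5.62%), 0.389% in P28 replicate 1 (22 of 5651, 0.244 to 0.589%) and 0.538% in P28 replicate 2 (38 of 7065, 0.381 to 0.738%). The P14 interval lay above both P28 intervals, and the P28 intervals overlapped. These intervals covered counting error only, and with 1 library at P14 no test between ages was made. The age and the library cannot be told apart at P14. No barcode sequence was shared between libraries among the B lineage barcodes, against 10 to 54 shared between a pair of libraries among all deposited barcodes, and 2 of the P14 B lineage barcodes recurred among those of P28 replicate 2.

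The genes of the rule were abundant in the barcodes they chose. Cd79a and Cd79b encode the Ig-alpha and Ig-beta chains that carry the signal of the B cell receptor. Cd79a stood at 2107 CPM (counts per 1e6 UMIs summed over these barcodes) at P14, 2413 in P28 replicate 1 and 1111 in P28 replicate 2, and at 0.552, 5.34 and 4.45 CPM in the other barcodes. Vpreb3, a chaperone-like protein of the pre-B and immature B cell, stood at 2971, 2119 and 1127 CPM. Ms4a1, which encodes CD20, stood at 459, 608 and 401 CPM and had no UMI in any other barcode. Ly6d, a surface protein of committed lymphoid progenitors and B cells, stood at 1803, 1805 and 854 CPM. On GRCm38 these genes lie at chr7:24897381-24902197 (Cd79a), chr11:106311341-106314762 (Cd79b), chr10:75943057-75949657 (Vpreb3), chr15:74762056-74763620 (Ly6d) and chr19:11249675-11266241 (Ms4a1), and 3′ counting does not say which exon a UMI came from.

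The threshold of 2 genes fell in a sparse region of the distribution. Of all barcodes within the limits, 13938 had none of the 5 genes, 305 had exactly 1, 6 exactly 2, 39 exactly 3, 53 exactly 4 and 37 all 5. The 6 barcodes just inside the threshold all carried Cd79a with Vpreb3, and 2 of them carried the kappa light chain gene Igkc. The 305 barcodes just outside carried mostly Cd79a (211), then Vpreb3 (46), Cd79b (44) and Ly6d (4), and of these Igkc was found in 1.

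**Figure D1:**
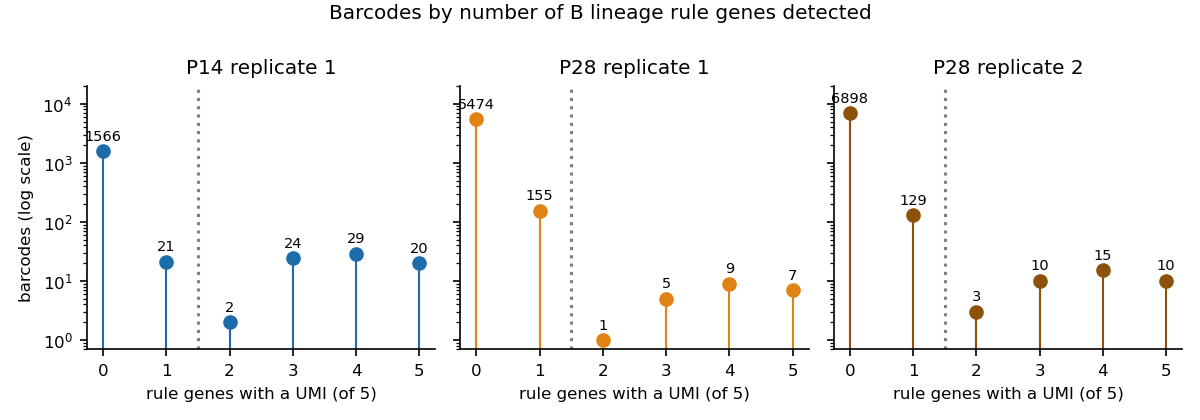
Number of barcodes (log axis) by how many of the 5 rule genes carried a UMI, for each library, with a dotted line at the threshold. Most barcodes carried none, few carried exactly 2, and the B lineage barcodes gathered at 3 to 5 genes.

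The median UMI count of a B lineage barcode was 1655 at P14, 1513 in P28 replicate 1 and 2244.5 in P28 replicate 2, with a median of 857, 803 and 1187.5 genes. Other barcodes had medians of 2565, 2424 and 2033 UMIs, so the B lineage barcodes were the shallower ones at P14 and in P28 replicate 1 but not in P28 replicate 2. Mitochondrial genes took a median of 4.94%, 11.0% and 11.4% of the UMIs of a B lineage barcode. At such depth a gene without a UMI in a barcode may still be expressed there.

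RNA of other cochlear cells was present to an unequal degree. UMIs in at least 2 marker genes of another cell type (macrophages, neutrophils, T and NK cells, hair cells or fibrocytes) were found in 9 of 75 barcodes at P14, 5 of 22 in P28 replicate 1 and 18 of 38 in P28 replicate 2, mostly fibrocyte and connective tissue markers (6, 3 and 16 barcodes). Of the other barcodes, 60.4%, 61.5% and 68.4% met the same criterion. B lineage barcodes with such markers were deeper, with medians of 2859, 3057 and 3527.5 UMIs against 1552.5, 1392 and 1283.5 without them. The 6 fibrocyte markers summed to 336, 1158 and 3909 CPM in B lineage barcodes, led by Otos at P14 and by Coch at P28, with Col1a1 at 0 in all 3 libraries, against 2418, 3212 and 4523 CPM in other barcodes. Hair cell markers summed to 219, 1334 and 1505 CPM, against 9600, 2532 and 1665. Of other blood lineages, all 8 T and NK cell markers were at 0 UMIs in the B lineage barcodes, as were 6 of 9 neutrophil markers, and the 8 macrophage markers summed to 5.33, 157 and 318 CPM, against 775, 426 and 335 in other barcodes. Doublets were not removed, and the part of free RNA and doublets in the results was not tested. The barcodes that carried such markers held 32793 of the 187503 B lineage UMIs at P14, 19523 of 50965 in P28 replicate 1 and 97766 of 132264 in P28 replicate 2. Levels in P28 replicate 2 were therefore mostly those of marker-carrying barcodes, and the levels of the main genes of the lineage are also given without these barcodes where an order between libraries is stated.

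Against all other barcodes of the same library, Ighm and most tested genes of B cell receptor signalling, B lineage transcription factors and the cell cycle were higher in B lineage barcodes. The sums of UMIs per library and side were compared with edgeR's quasi-likelihood test, with the library as a block and Benjamini-Hochberg adjustment over all genes tested, and the 5 rule genes were left out of the sums. Of 12900 genes tested, 698 were higher (5.41%) and 1125 lower (8.72%) at an adjusted p under 0.05, and the median log2 fold change of all genes was -0.52. Each count of list genes below is set against this background of 5.41% higher. A gene could pass the low-count filter only with the counts of the B lineage side, and its direction was then set in part by the filter. The other side passed the filter on its own for 12104 of the tested genes, of which 419 were higher (3.46%), and the list genes that did so are given beside each count. The lists were chosen with earlier results of these data known, so each count is a description.

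Igkc, the kappa light chain constant region (chr6:70726435-70726966), stood at 2896 CPM at P14 (exact Poisson 95% interval 2657 to 3150), 5003 in P28 replicate 1 (4408 to 5657) and 1784 in P28 replicate 2 (1564 to 2027). Other barcodes held 9 Igkc UMIs in all, at 0.552, 0.163 and 0.0432 CPM, so the 2 sides did not overlap in any library. In the barcodes without markers of other cell types Igkc stood at 3219, 5598 and 3218 CPM, so P28 replicate 2 then lay level with P14 rather than below it. Igkc passed the low-count filter only with the counts of the B lineage side, so its fitted log2 fold change of 13.82 (SE 0.63) is a description. A UMI of Igkc was found in 99 of the 135 barcodes, and in outer hair cell-gate barcodes (at least 3 of Slc26a5, Ocm, Pcp4, Lbh and Strip2), which should lack it, in 1 of 299 at P14 and none of 441 and 320 at P28, at median depths of 6649, 5308 and 3937 UMIs.

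The lambda constant regions followed. Iglc1 stood at 613, 1530 and 355 CPM, Iglc2 at 101, 1217 and 249.5 CPM and Iglc3 at 491, 549 and 212 CPM in the order P14, P28 replicate 1 and P28 replicate 2. Iglc3 had no UMI in any other barcode and was at least 7310-fold higher in B lineage barcodes, taking a floor of 3 counts over the group. Iglc1 and Iglc2, with 3 UMIs each in other barcodes, had log2 fold changes of 13.26 (SE 0.70) and 12.89 (SE 0.76). The 3 lambda genes are near-identical in part and also resemble Igll1, so the split of UMIs between them is uncertain. Summed over the 3 genes, lambda stood at 1205, 3296 and 816.5 CPM. In all, 6 of the 13 constant region genes were tested. Of these, Ighm was the only one that passed the low-count filter on the other side as well, so the direction of the rest was set by the filter and their count supports nothing.

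The heavy chain genes present were Ighm and Ighd. Ighm, which encodes the mu chain of IgM (chr12:113418558-113422730, minus strand), stood at 1861, 2217 and 1127 CPM and was found in 68 of 75, 20 of 22 and 36 of 38 barcodes. Without the barcodes that carried markers of other cell types it stood at 1887, 3085 and 2290 CPM, so P28 replicate 2 lay below P14 only with them. In that set the Ighm intervals of P14 (1677 to 2117 CPM) and P28 replicate 2 (1813 to 2854 CPM) overlapped, so neither was shown to be higher. The log2 fold change of Ighm against other barcodes was 4.87 (SE 0.49, edgeR quasi-likelihood test, Benjamini-Hochberg adjusted p = 2.06e-20). Ighm in other barcodes stood at 566, 18.9 and 19.9 CPM. Ighd, the delta chain of IgD, stood at 107, 137 and 30.2 CPM in 21 barcodes, with a log2 fold change of 7.99 (SE 0.82). Igha, Ighe, Ighg1, Ighg2b, Ighg2c and Ighg3, the switched isotypes, had no UMI in the 135 barcodes, which allows levels of up to 16.0, 58.9 and 22.7 CPM in the 3 libraries and a share of up to 2.22% of barcodes with a UMI.

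**Figure D2:**
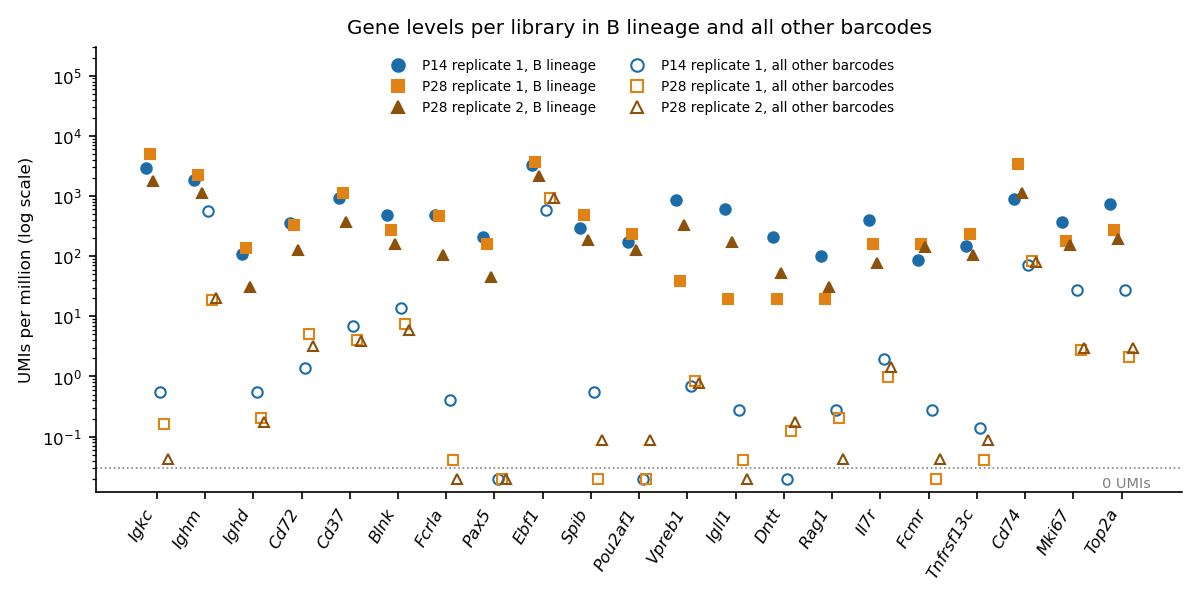
Level (CPM, log axis) of 21 genes in each library, with filled points for B lineage barcodes and open points for all other barcodes, and a band at the bottom for 0 UMIs. Igkc is high in B lineage barcodes and near 0 elsewhere, while Ighm outside the B lineage reaches 566 CPM in the P14 library, against 18.9 and 19.9 CPM in the P28 libraries.

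The Ighm counts outside the B lineage had a particular place. At P14, outer hair cell-gate barcodes held 4000 Ighm UMIs, 1858 CPM (exact Poisson 95% interval 1801 to 1917), with an interval that lay within that of the B lineage barcodes of the same library (1861 CPM, 1671 to 2067). A UMI was found in 225 of 299 of these barcodes, with a median of 10 and up to 87, and 180 of them held at least 5. None of the 181 P14 barcodes outside the B lineage that held at least 5 Ighm UMIs carried Igkc or Cd79a. At P28 the same gate held 8.78 and 8.62 CPM. Macrophage-gate barcodes (at least 2 of C1qa, C1qb, C1qc, Csf1r and Cx3cr1) that lay outside the outer hair cell gate held 125, 126 and 111 CPM with 0 Igkc UMIs.

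**Figure D3:**
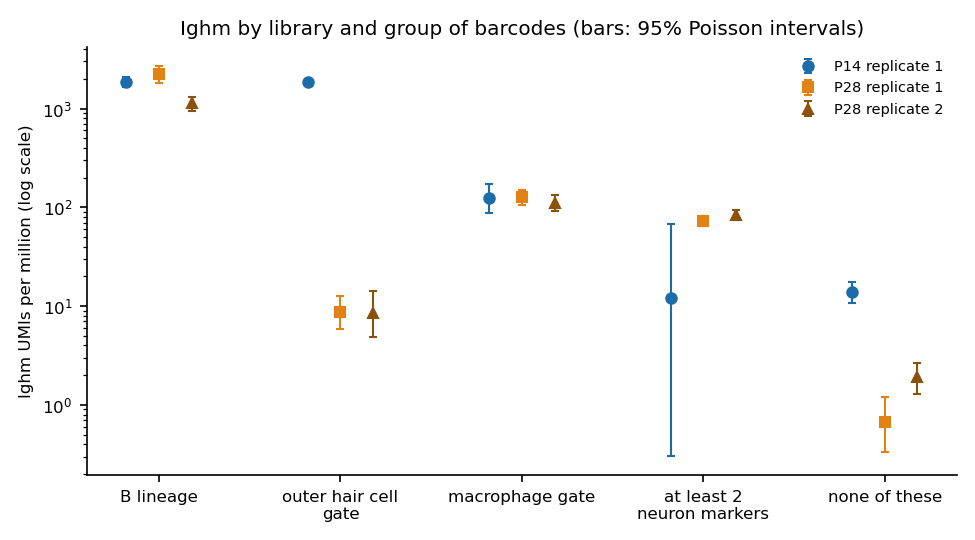
Ighm level (CPM, log axis, with exact Poisson 95% intervals) in B lineage barcodes and in 4 other sets of barcodes of each library. At P14 Ighm is as high in outer hair cell-gate barcodes (1858 CPM) as in B lineage barcodes (1861 CPM), and at P28 the same gate lies at 8.78 and 8.62 CPM.

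Most tested genes of the B cell receptor complex and its proximal signalling were higher in B lineage barcodes. Of 18 list genes, 16 were tested, 15 were higher and 1 was lower, with a median log2 fold change of 5.07 against -0.52 for all genes. Of the 6 that passed the filter on the other side as well, 5 were higher and 1 lower, and the direction of the rest was set in part by the filter. Blnk, the adaptor downstream of the kinase Syk, stood at 480, 275 and 159 CPM (log2 fold change 4.88, SE 0.50), and Syk at 443, 294 and 106 CPM (5.93, SE 0.54). Both had their highest value at P14, also without the marker-carrying barcodes (Blnk at 517, 350 and 203 CPM, Syk at 485, 413.5 and 145 CPM). In that set the intervals of Blnk overlapped between all libraries. Those of Syk lay apart only between P14 (381 to 608 CPM) and P28 replicate 2 (47.1 to 338 CPM). For neither gene was P14 shown to be higher than P28 replicate 1. In each library Blnk and Syk lay above the other barcodes. Fcrla, an intracellular Fc receptor-like protein of B cells, stood at 491, 471 and 106 CPM (11.54, SE 0.70). Cd81, a tetraspanin that most cell types express, was the gene that fell, by 1.43 on the log2 scale (SE 0.44, edgeR quasi-likelihood test, Benjamini-Hochberg adjusted p = 0.0112), with 123, 98.1 and 355 CPM in B lineage barcodes against 451, 417 and 409.

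Of 16 B lineage transcription factors, all tested, 13 were higher and none lower, with a median log2 fold change of 3.84. Of the 10 that passed the filter on the other side as well, 7 were higher, and the direction of the rest was set in part by the filter. Pax5, which commits progenitors to the lineage, stood at 208, 157 and 45.4 CPM in 41 barcodes and had no UMI in the 14243 other barcodes. Pou2af1, the co-activator that works with octamer-binding factors on immunoglobulin genes, stood at 171, 236 and 128 CPM (log2 fold change 11.61, SE 0.77), and Spib, an Ets factor of B cells, at 293, 490.5 and 189 CPM (10.91, SE 0.68). These 3 were at or below 0.552 CPM in the other barcodes of every library. Ebf1, which opens the B cell programme but is also used by connective tissue cells, stood at 3264, 3610 and 2117 CPM against 581, 919 and 926 (1.74, SE 0.37). Foxo1 (0.84), Runx1 (-0.04) and Id3 (-0.99) did not pass the test, with adjusted p of 0.291, 0.974 and 0.0816 in the same edgeR quasi-likelihood test with Benjamini-Hochberg adjustment.

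Other genes with large fold changes, named by their rank among genes with at least 100 UMIs, were Igll1, Siglecg, Ptprcap and Vpreb1. All of them passed the low-count filter only with the counts of the B lineage side, so their direction is a description. Siglecg, an inhibitory lectin of B cells, stood at 288, 432 and 121 CPM (log2 fold change 9.38, SE 0.64), and Ptprcap, a partner of the phosphatase CD45, at 1051, 942 and 302 CPM (8.85, SE 0.56). At the other end, the 10 named genes that were lower all had 0 UMIs in the B lineage barcodes. They included the neutrophil gene S100a8 (at least 31.9-fold lower), the neuronal genes Map1a (at least 30.6-fold), Tubb3 (at least 11.8-fold) and Ina (at least 10.6-fold), the tectorial membrane gene Tectb (at least 3.25-fold) and the calcium buffer Calb1 (at least 3.24-fold), each against a floor of 3 counts over the group. The rest were Rubie (at least 3.82-fold), Epb41l4a (5.05), Clic6 (5.64) and Tspan12 (8.26). Of these calls, 8 of the 10, all but Clic6 and Tspan12, were no longer called with no library block, and Rubie, Epb41l4a, Clic6, Tectb and Calb1 were no longer called without the P14 library. The count of lower genes moved from 1125 to 158 without the library block and to 2316 without the barcodes that carried markers of other cell types. Without the P14 library it was 251 and without P28 replicate 1 it was 368, and the higher genes numbered 297 and 458 in those fits.

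Macrophage-gate barcodes, 719 in all (64, 305 and 350), served as a comparison within the immune cells of these libraries. Against them, 4310 genes were tested with the 10 genes of both rules left out, and 167 were higher (3.87%) and 280 lower (6.5%) in B lineage barcodes, with a median log2 fold change of -0.14 over all genes. Of the 2951 genes that passed the filter on the macrophage side as well, 45 were higher (1.52%). The genes with the largest differences were again Igkc (at least 2480-fold higher), Iglc1 (576), Iglc3 (355), Fcrla (312), Iglc2 (274) and Spib (252), all with 0 UMIs in macrophage-gate barcodes. Ptprcap and Mzb1, a chaperone for IgM secretion, had 1 UMI each there and log2 fold changes of 9.88 (SE 0.69) and 9.48 (SE 0.66). All of these named genes passed the low-count filter only with the counts of the B lineage side, so their direction is a description.

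Fewer list genes passed the test against macrophage-gate barcodes, where fewer were tested. Of the B cell receptor list, 8 of 12 tested genes were higher (median log2 fold change 2.44), 3 of the 6 that passed the filter on the macrophage side as well, and Lyn (0.26), Ptpn6 (0.15), Bank1 (0.92) and Cd81 (-1.10) did not pass the test. Of the transcription factors, 9 of 15 were higher, 2 of the 6 that passed on the macrophage side as well, and Spi1, a master factor of myeloid cells that B cells use at a lower dose, fell by 1.60 (edgeR quasi-likelihood test, Benjamini-Hochberg adjusted p = 0.0221). Spi1 stood at 96.0, 98.1 and 45.4 CPM in B lineage barcodes. The antigen presentation genes of the mature list did not pass the test. Cd74, the invariant chain of MHC class II, stood at 896, 3414 and 1134 CPM in B lineage barcodes and had a log2 fold change of 4.12 against all other barcodes but 0.59 against macrophage-gate barcodes (adjusted p = 0.435 in the edgeR quasi-likelihood test with Benjamini-Hochberg adjustment). H2-Aa (-0.83), H2-Ab1 (-0.34) and H2-Eb1 (-0.59), MHC class II chains, did not pass either.

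The 10 named genes lower than in macrophage-gate barcodes all had 0 UMIs in B lineage barcodes and were genes of tissue macrophages. Ms4a7, a macrophage relative of CD20, was at least 63.4-fold lower, Fcrls 42.4-fold, Trem2, a lipid receptor of microglia and macrophages, 35.1-fold, P2ry6 21.9-fold, Lyve1 18.2-fold and the iron exporter Slc40a1 16.5-fold, each a bound against a floor of 3 counts. Crybb1 (15.6), Cbr2 (14.7) and Cd209f (14.1) were also among them. Slc40a1 and Crybb1 were no longer called with no library block or with DESeq2, and Cbr2 was no longer called with no library block. Without the P28 replicate 2 library, 289 genes were higher and 542 lower, and without the barcodes that carried markers of other cell types, 369 and 686.

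**Figure D4:**
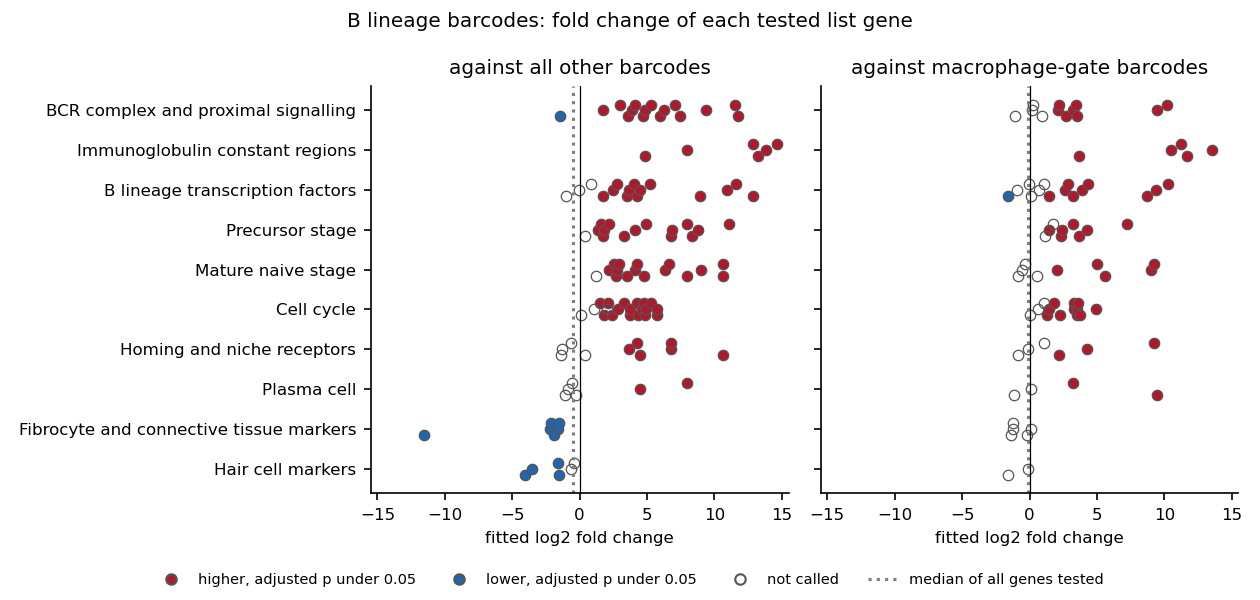
Fitted log2 fold change of each tested gene of 10 lists, against all other barcodes (left) and macrophage-gate barcodes (right), with filled points for genes past an adjusted p of 0.05 and a dotted line at the median of all genes tested. Fitted values of genes with 0 UMIs on 1 side, such as Iglc3 and Pax5, depend on the prior count and are no measured fold.

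Genes of precursor and of mature stages were both found in the 135 barcodes. Precursor stage genes were higher than in other barcodes in 14 of 15 tested (of 18), with a median log2 fold change of 4.08, and mature naive stage genes in 15 of 16 (of 20), with a median of 4.18. Of the 7 genes of each list that passed the filter on the other side as well, 6 were higher. The direction of the rest was set in part by the filter. Vpreb1, which forms the surrogate light chain together with Igll1, stood at 853, 39.2 and 333 CPM in 21, 1 and 6 barcodes (log2 fold change 8.34, SE 0.64), and Igll1 at 603, 19.6 and 174 CPM in the same numbers of barcodes (11.07, SE 0.80). Their level was lowest in P28 replicate 1, where 1 barcode carried each. The order of the other libraries depended on the marker-carrying barcodes. Without them Vpreb1 stood at 860 CPM at P14 (exact Poisson 95% interval 720 to 1019) and 1188 in P28 replicate 2 (853 to 1612), and Igll1 at 620.5 (503 to 758) and 609 CPM (377 to 930.5), and for both genes these intervals overlapped. Vpreb1 and Vpreb2 are near-identical, so their split is uncertain. Dntt, the terminal transferase that adds bases at joints of rearranging genes, stood at 208, 19.6 and 52.9 CPM, Rag1 at 101, 19.6 and 30.2 CPM, and Rag2 had 9 UMIs at P14 and 0 at P28. Without the P14 library the count of higher precursor genes fell from 14 to 7, and without the library block to 8.

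The receptor and regulators of early stages were broader. The genes given with a fold change here passed the low-count filter only with the counts of the B lineage side, so their direction is a description. Il7r, the receptor for the growth factor of pro-B and pre-B cells, stood at 400, 157 and 75.6 CPM (log2 fold change 6.79, SE 0.59), and Myb, a progenitor transcription factor, at 341, 177 and 106 CPM (6.84, SE 0.58). Both were highest at P14, also without the marker-carrying barcodes (Il7r at 439.5, 254 and 174 CPM, Myb at 336, 223 and 145 CPM), where the intervals of each overlapped between all libraries. Among mature genes, Fcmr, the Fc receptor for IgM, stood at 85.3, 157 and 144 CPM (10.62, SE 0.81), Tnfrsf13c, the receptor for the survival factor BAFF, at 149, 236 and 106 CPM (10.61, SE 0.74), and Ltb, which encodes lymphotoxin beta, at 128, 236 and 106 CPM (6.32, SE 0.58). For these 3 genes P28 replicate 1 held the highest value, but without the marker-carrying barcodes the highest value of Fcmr was in P28 replicate 2 (84.0, 254 and 435 CPM). Tnfrsf13c then stood at 149, 254 and 203 CPM and Ltb at 136, 318 and 232 CPM. In that set the intervals of Tnfrsf13c and of Ltb overlapped between all libraries. Those of Fcmr lay apart only between P14 (44.7 to 144 CPM) and P28 replicate 2 (243 to 717 CPM). Which library was highest was therefore not shown for any of them. Cxcr5, the receptor for entry into follicles, had no UMI in any barcode of the libraries within the limits.

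Barcodes were then split by 2 gates within the lineage, a precursor gate (any UMI of Vpreb1, Vpreb2, Igll1, Rag1, Rag2 or Dntt) and a mature gate (any UMI of Ighd, Fcer2a, Cr2, Fcmr or Ccr7). At P14, 25 barcodes met the precursor gate alone, 23 the mature gate alone, 5 both and 22 neither. In P28 replicate 1 these were 3, 7, 0 and 12, and in P28 replicate 2 they were 7, 15, 2 and 14. The precursor-only share was 33.3% at P14 (exact binomial 95% interval 22.9 to 45.2%), 13.6% in P28 replicate 1 (2.91 to 34.9%) and 18.4% in P28 replicate 2 (7.74 to 34.3%), and these intervals overlapped. Precursor-only barcodes were deeper, with a median of 2353 UMIs against 1434 for mature-only barcodes. Those of both gates had a median of 3387 and those of neither gate 1523.5.

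The kappa light chain, which neither gate used, differed between them. Igkc was found in 41 of 45 mature-only barcodes, with 506 UMIs, and in 16 of 35 precursor-only barcodes, with 73 UMIs. At P14, the only library with at least 10 barcodes on both sides, Igkc stood at 6020 CPM in mature-only barcodes (exact Poisson 95% interval 5323 to 6782) and 671 CPM in precursor-only barcodes (505 to 873). The order was the same in both P28 libraries, and with 1 such library no test between the gates was made. Of 582 genes with at least 30 UMIs in the gated barcodes at P14, 23 were higher on the mature side (3.95%) and 44 on the precursor side (7.56%), taking intervals that did not overlap at P14 and the same direction in 3 libraries. The 23 include the rule genes Cd79b, Ly6d and Ms4a1, which are only a description. Those that led the other 20 were Cd74 (1940 against 73.2 CPM at P14), Igkc, Klf2, a quiescence and trafficking factor (557 against 159 CPM), Cd52, a small glycoprotein of lymphocyte surfaces (1226 against 354 CPM), Iglc1 (1026 against 317 CPM), Apoe (892 against 85.4 CPM) and Myl12b (580 against 122 CPM).

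The precursor side was led by Ranbp1 and Pcna. Pcna, the DNA polymerase clamp, stood at 780 CPM in precursor-only against 66.9 CPM in mature-only barcodes at P14, Ranbp1, a partner of the nuclear transport GTPase Ran, at 573 against 44.6 CPM, and Ncl, which encodes nucleolin, at 1305 against 334 CPM. The others named were Snrpd1, Ndufb7, Atp1b3, Srrm1, Tpr, Hspe1 and Txn1, at 329 to 537 CPM against 66.9 to 134 CPM. Hbb-bs, a beta globin, also passed on the mature side at 52170 against 195 CPM, and 1 barcode decided it. That P14 barcode held 2326 of the 2375 Hbb-bs UMIs of the P14 B lineage, 97.9%, beside 26 UMIs of rule genes and 15 of Igkc, and without it 27 genes were higher on the mature side and 31 on the precursor side. Without the barcodes that carried markers of other cell types, 19 and 34 genes were called, and Apoe, Klf2, Atp1b3, Hspe1 and Ndufb7 were no longer among them.

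Cell cycle genes were higher than in other barcodes in 17 of 20 tested, none was lower, and the median log2 fold change was 3.76. Of the 12 that passed the filter on the other side as well, 9 were higher. The direction of the rest, with Top2a among them, was set in part by the filter. Against macrophage-gate barcodes 11 of 14 were higher (median 2.76), and 4 of the 6 that passed on the macrophage side as well. Top2a, the topoisomerase of dividing cells, stood at 736, 275 and 197 CPM in 23 barcodes (log2 fold change 5.72, SE 0.51), Mki67 at 373, 177 and 151 CPM in 22 barcodes (4.90, SE 0.52), and Hmgb2 at 3499, 2099 and 938 CPM in 60 barcodes (4.75, SE 0.43). All 3 were highest at P14, also without the marker-carrying barcodes (Top2a at 782, 191 and 377 CPM, Mki67 at 414, 191 and 377 CPM, Hmgb2 at 3497, 2640 and 1971 CPM). There the intervals of Mki67 overlapped between all libraries. Those of Hmgb2 overlapped between P14 (3208 to 3804 CPM) and P28 replicate 1 (2103 to 3272 CPM). Only for Top2a did the P14 interval lie apart from those of both P28 libraries. Stmn1 (1.03), Tuba1b (0.13) and Tyms (2.06) did not pass the test against other barcodes. UMIs in at least 3 of 8 cycle genes were found in 14 of 75 barcodes at P14 (18.7%, exact binomial 95% interval 10.6 to 29.3%), 2 of 22 in P28 replicate 1 (9.09%, 1.12 to 29.2%) and 7 of 38 in P28 replicate 2 (18.4%, 7.74 to 34.3%). Other barcodes had shares of 1.76%, 0.249% and 0.270%. Macrophage-gate barcodes had shares of 7.81% (5 of 64, 2.59 to 17.3%), 2.95% (9 of 305, 1.36 to 5.53%) and 0.571% (2 of 350, 0.0693 to 2.05%), so the intervals of B lineage and macrophage-gate barcodes overlapped at P14 and in P28 replicate 1 and lay apart in P28 replicate 2. By gate, these were 10 of 35 precursor-only, 4 of 7 double, 5 of 45 mature-only and 4 of 48 ungated barcodes. The double and precursor-only barcodes were the deeper ones, with medians of 3387 and 2353 UMIs.

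Kappa chains outnumbered lambda chains in UMIs. Kappa made up 70.6% of light chain constant region UMIs at P14 (543 of kappa, 226 of lambda, exact binomial 95% interval 67.2 to 73.8%), 60.3% in P28 replicate 1 (255 and 168, 55.4 to 65.0%) and 68.6% in P28 replicate 2 (236 and 108, 63.4 to 73.5%). UMIs are not independent between cells, so these intervals are too narrow for cells: in P28 replicate 1 the 3 barcodes with most lambda UMIs held 45.2% of them. A B cell as a rule uses 1 light chain. Of the 98 barcodes with at least 3 light chain UMIs, 39 had at least 90% kappa, 10 had at most 10% kappa and 49 were mixed. In the mixed barcodes the rarer chain had a median of 5 UMIs and at least 3 in 38 of them, while all other barcodes together held 9 Igkc and 6 lambda UMIs.

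**Figure D5:**
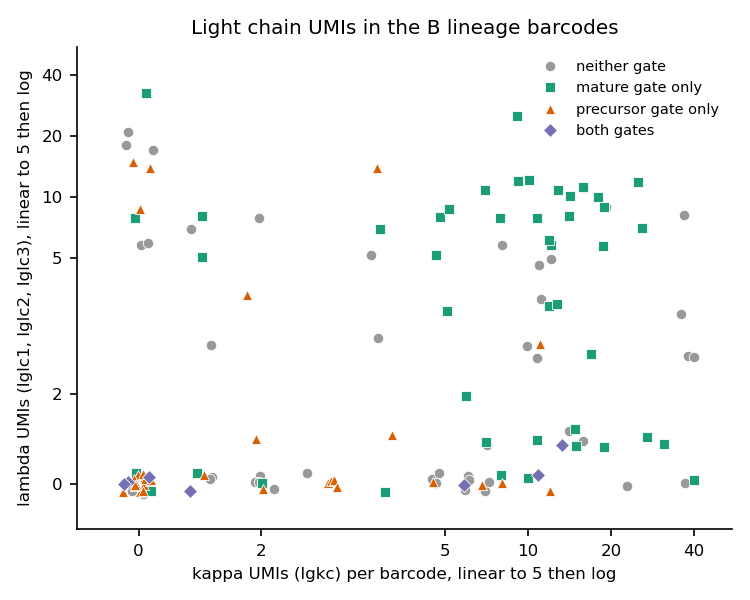
Kappa (Igkc) and lambda (Iglc1, Iglc2 and Iglc3) UMIs of each B lineage barcode, coloured by gate, on axes linear to 5 and logarithmic above, with points shifted slightly at random so that they do not cover each other. Points away from both axes are the mixed barcodes, 49 of 98 with at least 3 light chain UMIs.

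The mixed barcodes had a median of 1341 UMIs, against 2534 for kappa barcodes, and 11 of the 49 carried markers of other cell types, as did 13 of the 39 kappa barcodes. By gate, 29 of 45 mature-only, 15 of 48 ungated, 5 of 35 precursor-only and 0 of 7 double barcodes were mixed. Igll1, which resembles the lambda constant regions, was found in 28 barcodes, and only 2 of these also held a lambda UMI. What gave a barcode both chains was not tested. Variable genes were rarely captured by the 3′ reads, with 10 UMIs of 8 Ighv genes, 19 of 15 Igkv genes and 7 of 2 Iglv genes. Of these, 10, 16 and 5 UMIs were from the P14 library.

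Of 10 plasma cell genes, 4 had 0 UMIs, 6 were tested, none of the 4 that passed the filter on the other side as well was higher, and 2 that passed it only with the counts of the B lineage side were, Mzb1 (859, 628 and 280 CPM, log2 fold change 7.99, SE 0.54) and Irf4 (58.7, 118 and 60.5 CPM, 4.49, SE 0.66), both of which are also used before the plasma cell stage. Jchain, which joins IgM and IgA polymers, Prdm1, the master repressor of the plasma cell, and Tnfrsf17, its survival receptor, had 0 UMIs, which allows up to 8.09 CPM over the 370732 UMIs of the 135 barcodes. Xbp1 (-0.83), Txndc5 (-0.57), Sdc1 (-0.28) and Derl3 (-1.09) did not pass the test. Of 5 genes associated with B-1 cells, Cd5 and Zbtb32 had 0 UMIs, and of the 2 tested, Cd9 fell by 2.13 and Bhlhe41 had a log2 fold change of -0.70 that did not pass.

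Receptors for homing and niche signals were in part higher than in other barcodes, in 6 of 10 tested (of 12, median log2 fold change 3.94) and in 1 of the 4 that passed the filter on the other side as well. Cxcr4, the receptor that holds precursors in the marrow niche, stood at 74.7, 58.9 and 83.2 CPM in 22 barcodes against 3.18, 2.65 and 3.02 CPM (log2 fold change 4.50, SE 0.64). The integrin chain Itga4 (3.65) was the gene that was higher among those passing the filter on the other side as well. S1pr4 (6.74), Il7r and Tnfrsf13c were also higher. Like Cxcr4, they passed the filter only with the counts of the B lineage side, so their direction is a description. S1pr1 (0.43), Cd44 (-1.39), Kit (-1.30) and Flt3 (-0.61) did not pass the test. Of 7 ligands of these receptors 4 were tested, 1 was lower and none higher in B lineage barcodes (median log2 fold change -1.69). Cxcl12, the ligand of Cxcr4, stood at 18.2, 34.2 and 43.2 CPM in other barcodes, Kitl at 39.3, 29.1 and 31.4 CPM and Vcam1, the ligand of Itga4, at 38.5, 40.5 and 51.5 CPM. In B lineage barcodes Cxcl12 and Kitl had UMIs in 2 barcodes each, both in P28 replicate 2, and Kitl fell by 2.77 (edgeR quasi-likelihood test, Benjamini-Hochberg adjusted p = 0.0415). Il7, the ligand of Il7r, had 0.138, 0.0407 and 0.259 CPM in other barcodes and no UMI in the B lineage.

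The ages were compared without a test, by exact Poisson intervals of each library. A gene was called when its CPM differed by at least 2-fold between P14 and both P28 libraries, in the same direction and with intervals apart. Of 1752 genes with at least 100 CPM at P14 or in both P28 libraries, 60 were higher at P14 (3.42%) and 60 at P28 (3.42%). Only 20 of the former and 11 of the latter were also called with at least 3 rule genes, without barcodes that carried markers of other cell types and without the haemoglobin-rich barcode. The number called without the marker-carrying barcodes was 26 and 19.

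Replication-dependent histone genes, which are transcribed mainly in S phase, stood out at P14 and were grouped after their values were seen, with 15 of 19 tested called there and none at P28. Hist1h2ap stood at 6288 CPM at P14, 19.6 in P28 replicate 1 and 227 in P28 replicate 2, and at 252, 0.978 and 4.32 CPM in other barcodes. Hist1h1b, a linker histone, stood at 2912, 137 and 197 CPM, against 98.6, 3.02 and 3.67 in other barcodes. In other barcodes 14 of these 15 histone genes also differed by at least 2-fold in the same direction from both P28 libraries, most of them below the 100 CPM that a call needs, so that 3 were called there. Without the marker-carrying barcodes 8 of the 15 were called in the B lineage. Of the 20 genes of the cell cycle list 2, Top2a and Stmn1, were called at P14, and the share of barcodes with at least 3 of 8 cycle genes was 18.7% at P14 and 18.4% in P28 replicate 2. Vpreb1, Igll1, Dntt and Il7r were called at P14 but not in the set without marker-carrying barcodes, where Vpreb1 stood higher in P28 replicate 2 (1188 CPM) than at P14 (860 CPM), Igll1 stood at 609 and 620.5 CPM and Dntt at 145 and 226 CPM.

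Several age differences were those of the libraries as a whole. Of the 60 genes higher at P14, 12 were also called at P14 in other barcodes, where 207 of 1993 genes were, and 14 of the 60 higher at P28 were called there too, where 204 were. Without the limit of 100 CPM, 27 and 16 of the 60 differed by at least 2-fold in the same direction in other barcodes. Xist, the RNA of the inactive X chromosome, had 206 UMIs at P14 and 0 in both P28 libraries, at least 18.7-fold higher against a floor of 3 counts in a library, with 379, 0.244 and 0.345 CPM in other barcodes. The Y-linked Ddx3y stood at 10.7, 118 and 121 CPM in B lineage barcodes and 24.6, 98.3 and 113 CPM in other barcodes. The sex makeup of the pools and the age therefore cannot be told apart. AY036118, which overlaps ribosomal RNA sequence, was at least 10.9-fold higher at P14 and was called in other barcodes too, and Hbb-bs and Hbb-bt rested on the haemoglobin-rich barcode.

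At P28, the mitochondrial genes mt-Atp6, mt-Co2, mt-Co3 and mt-Cytb were higher, 4 of 12 tested, with mt-Atp6 at 7173, 22560 and 18950 CPM in B lineage barcodes and at 9474, 19710 and 18720 CPM in other barcodes. The mitochondrial gene mt-Atp8 went the other way and was called at P14, at 2832, 275 and 514 CPM, against 3162, 254 and 477 CPM in other barcodes. Genes named by their ratio were Dst, Enah, Aif1l, Rora and Chst2, with 0 UMIs at P14 and at least 8.51, 8.51, 7.09, 9.92 and 6.62-fold higher at P28, and Pcp4 (16.0, 1040 and 1202 CPM), Cib2, Gpx2, Emcn and Efhd1. Pcp4 was a gene of the outer hair cell gate. Of these 10 only 1, Emcn, an endothelial and epithelial sialomucin, was still called without the barcodes that carried markers of other cell types, and it was also called in other barcodes (122, 794 and 835 CPM). Iglc2 was called at P28, also without the marker-carrying barcodes, but the split of UMIs between the lambda genes is uncertain. The summed lambda level was 1205, 3296 and 816.5 CPM in all B lineage barcodes and 1325, 4071 and 1391 CPM without the marker-carrying ones, so P28 replicate 2 lay below P14 in the former and within counting error of it in the latter (1026 to 1845 CPM against 1150 to 1519). Ifi27l2a, an interferon-induced gene, stood at 304, 1158 and 749 CPM and was also called in other barcodes.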

How the data were processed

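The study pooled 14 cochleae of 7 mice per library and sequenced 3 droplet libraries. The authors deposited raw UMI counts per gene and barcode, made with Cell Ranger on mm10 (version 6.0.1 per the submitters' processing notes, 5.0.1 per the file headers), with no normalization. The study's own limits kept barcodes of 200 to 3000 genes with no more than 15000 UMIs and a mitochondrial share of up to 15%, and doublet removal is not given in the sources used here. Here 1662 of 2513, 5651 of 11948 and 7065 of 18196 barcodes lay within 200 to 6000 genes and 15%. Gene symbols were those of the files, of which 32158 of 32285 features (99.6%) matched GENCODE vM21 by identifier. Promoters came from RefSeq.

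The members, gene lists and tests were chosen with earlier results of these data known. UMIs were summed per library and side and fitted with edgeR 4.0.16 in R 4.3.3 (TMM, filterByExpr, quasi-likelihood test, library as a block, Benjamini-Hochberg over all genes tested). The block follows from the design, since both sums of a library come from the same mice and run. Their deviations from the side means correlated at 0.228, 0.0421 and 0.274 against other barcodes and 0.472, -0.0145 and 0.47 against macrophage-gate barcodes. The fit was tested on simulated data with 4-fold changes in 200 genes, of which it recovered 61 of the 200 (30.5%, 0 false calls, 12900 genes tested) for the comparison with other barcodes and 139 of the 200 (69.5%, 4 false calls, 4310 genes tested) for that with macrophage-gate barcodes. The simulation used a fixed dispersion and the same gene proportions in every library, so its false calls need not hold for the real data. CPM values are UMIs scaled to the UMI sum of the barcodes of a library and side, with exact 95% Poisson intervals, and shares have exact (Clopper-Pearson) intervals. Both cover counting error only. A floor of 3 counts stands for 0. Counts were read with numpy 2.4.6, scipy 1.17.1 and pandas 2.3.3 under Python 3.11.15.

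Genes were named from the lists, and by the 10 largest fold changes in each direction among genes past the adjusted p of 0.05, in the same direction in every library and with at least 100 UMIs. Between gates, where no test was made, the 10 largest ratios in each direction were named, and between ages the 10 largest ratios among genes with at least 100 CPM at the higher age. Alternatives were DESeq2 1.42.0, no block, RLE size factors, other count filters, each library left out, at least 3 rule genes, the study's limits, a mitochondrial limit of 30%, barcodes thinned to 500 UMIs, and B lineage barcodes with markers of other cell types left out. Some genes that these rules would name are not reported here.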

Additional observations from a re-analysis of the deposited data

Results flagged for a closer look

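Ighm in outer hair cell-gate barcodes of the P14 library stood at 1858 CPM, with 4000 UMIs in 225 of 299 barcodes. This level lay far above the 8.78 and 8.62 CPM of the same gate at P28. The gate is part of the other barcodes in the Ighm comparison and held 4000 of their 4103 Ighm UMIs at P14. Igkc had 1 UMI in these barcodes and Cd79a had none, and 180 of the 181 barcodes outside the B lineage with at least 5 Ighm UMIs at P14 lay in this gate, with 95.1% of the Ighm UMIs outside the B lineage. P14 had 1 library, and the cause was not tested.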

How the results depend on the processing

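No fold change of a named gene against other or macrophage-gate barcodes changed sign under the alternatives run for it. Between libraries the order of values was not stable. Without marker-carrying barcodes Ighm, Vpreb1 and the lambda sum in P28 replicate 2 no longer lay below their P14 level (2290 against 1887, 1188 against 860 and 1391 against 1325 CPM). For each of them the intervals of these libraries then overlapped, so neither library was shown to be higher. The counts of genes higher and lower than in other barcodes (698 and 1125) became 157 and 144 with at least 10 UMIs in every sum, where fewer genes were tested. Only 152 and 36 of these were among the 698 and 1125. With 1 library left out the counts were 297 to 626 and 251 to 1061, lowest for both without the P14 library. With no replicate block the lower genes numbered 158, with DESeq2 283, with the study's limits 1705 and without barcodes carrying markers of other cell types 2316. With no replicate block 500 genes were higher, of which 498 were shared with the 698. With at least 10 UMIs in every sum the counts of higher list genes against other barcodes also fell. They went from 15 to 5 for B cell receptor genes, 13 to 5 for transcription factors and 17 to 6 for cell cycle genes. Precursor stage genes went from 14 to 3, mature stage genes from 15 to 6 and homing receptors from 6 to 0.

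Against macrophage-gate barcodes (167 higher, 280 lower) the counts were 77 and 52 with at least 10 UMIs in every sum, 286 and 647 with no filter beyond 1 UMI, 297 and 527 with the study's limits, 369 and 686 without marker-carrying barcodes, and 127 to 289 and 216 to 542 with 1 library left out. With no replicate block 180 were lower. Causes were not tested. Of the named genes, 13 of 217 values against other barcodes and 5 of 220 against macrophage-gate barcodes lost significance, all of genes lower in the B lineage with 0 UMIs there, with no replicate block, without the P14 library or with DESeq2.

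Between ages, 26 genes were higher at P14 without marker-carrying barcodes, and at P28 19 without them and 18 with at least 3 rule genes. Leaving out the haemoglobin-rich barcode, chosen after seeing the data, gave 56 and 56. The share in P28 replicate 2 was 0.368% after thinning to 500 UMIs. The test between mature and precursor gates, and its alternatives by block, tool, normalization, filter and left-out library, were not run, since the design asked for at least 10 barcodes on both sides and only the P14 library had them. Depth limits what can be shown: 22 and 38 barcodes at P28 leave most genes with few UMIs.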

Other observations

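A few RNAs of the B lineage were found outside it. At P14, 56 UMIs of Ly6d lay in 2 other barcodes, and without Ly6d in the rule the 3 libraries still held 75, 22 and 38 B lineage barcodes. Cd79a was found in 0.252% of other barcodes at P14, 2.01% in P28 replicate 1 and 1.34% in P28 replicate 2, and in 0%, 0.68% and 0% of outer hair cell-gate barcodes. Neuron-marker barcodes (at least 2 markers, in neither gate) held Ighm at 12.2, 72.7 and 83.4 CPM with 0 UMIs of Igkc.

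Among the 10 most abundant genes of the P14 B lineage barcodes, Ptma, which encodes prothymosin alpha, stood at 8667 CPM, against 957 CPM in other barcodes, and Tmsb10, a thymosin, at 5803 CPM against 805 CPM. Ptn, a secreted growth factor, was among them in P28 replicate 2, at 7671 CPM in the B lineage barcodes with markers of other cell types and 841 CPM in those without.

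Of progenitor markers, 5 of 5 tested genes did not pass against other barcodes, with a median log2 fold change of -1.30. Plasmacytoid dendritic cell markers had 1 of 5 tested higher and 1 lower. Of the 3 that passed the filter on the other side as well, 0 were higher and 1 was lower.

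With a mitochondrial limit of 30% the rule found 75, 34 and 80 barcodes, so that the P28 libraries gained and the P14 library did not.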
